A study of Ovis aries with 24 samples.

Results

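The 46 genes described here carry the names of families that make, break down and read the second messenger cyclic AMP (cAMP), although some members act on cyclic GMP or do other work. They are the features of the deposited sheep count tables whose gene name matched an adenylyl cyclase (ADCY), a numbered phosphodiesterase (PDE), a catalytic or regulatory subunit of protein kinase A (PRKAC, PRKAR), a RAPGEF exchange factor, or CREB1, CREM or ATF1. The names gave 10 cyclases, 22 phosphodiesterases, 2 catalytic and 4 regulatory kinase subunits, 5 exchange factors and 3 transcription factors, out of 27054 features. The rule uses gene names and no measured value, but it was written with earlier results of these data known. RNA had been sequenced from primary pituitary cell cultures of ovariectomized Western white faced ewes, in 4 groups of 6 libraries. The groups were cells treated with estradiol (E2) and then sorted, cells treated with ethanol vehicle and then sorted, unsorted cells treated with E2, and unsorted cells treated with vehicle. Sorted cells are labelled as gonadotropes, the cells that secrete the gonadotropins. Per the labels, every culture had received an adenovirus that directs green fluorescent protein to gonadotropes 24 hours after dispersal, and 3 days later 10 nM E2 or vehicle for 6 hours. The promoter in that virus is not given in the sources used here, nor is the number of ewes behind each library.

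Adenylyl cyclases turn ATP into cAMP under the control of stimulatory and inhibitory G proteins, and some also under calcium, which rises in gonadotropes when gonadotropin-releasing hormone binds its receptor. Most numbered phosphodiesterases hydrolyse cAMP, cyclic GMP or both. In the resting kinase, regulatory subunits hold the catalytic subunits inactive, and cAMP frees them to phosphorylate targets that include CREB1, CREM and ATF1. RAPGEF3 and RAPGEF4, also called EPAC1 and EPAC2, are a separate branch, in which cAMP directly activates exchange factors for the small GTPase Rap. In pituitary endocrine cells cAMP is best known for relaying hypothalamic hormones such as growth hormone-releasing hormone and corticotropin-releasing hormone to secretion and hormone gene transcription.

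Total counts were 4.19 to 6.19 M reads in the libraries of replicates 1 to 3 and 19.2 to 37 M in those of replicates 4 to 6, so each group held both depths. Levels below are in CPM, counts scaled to the library total after TMM normalization, and are compared between groups, not between genes, since gene length is not divided out. The summed level of 7 gonadotrope markers was 2810 to 5570 CPM in sorted E2, 2710 to 5990 in sorted vehicle, 412 to 1700 in unsorted E2 and 431 to 1540 CPM in unsorted vehicle libraries. Lactotrope markers were high in the sorted libraries too: the 5 of them, prolactin included, summed to 58200 to 155000 CPM in sorted E2 and 68100 to 178000 CPM in sorted vehicle libraries. In unsorted libraries the lactotrope sum was 41600 to 96100 CPM with E2 and 39400 to 90900 CPM with vehicle.

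Of the 46 genes, 38 had enough reads to be tested in every comparison. The 8 others are ADCY4, ADCY8, ADCY10, PDE1A, PDE6B, PDE6C, PDE6G and PDE6H. None of these had a mean of 1 CPM in any group, and the highest group means among them were 0.776 CPM for ADCY4, in unsorted vehicle libraries, and 0.655 CPM for PDE6B, also in unsorted vehicle libraries. ADCY8, a calcium-stimulated cyclase, had 39 reads over the 6 sorted E2 libraries and 38 over the sorted vehicle libraries. It had 7 reads over the unsorted E2 libraries and 17 over the unsorted vehicle libraries. ADCY10, the bicarbonate-sensing soluble cyclase, and PDE1A, a calcium-stimulated phosphodiesterase, had highest group means of 0.146 and 0.558 CPM. PDE6C, PDE6G and PDE6H, subunits of the photoreceptor cyclic GMP phosphodiesterase, had highest group means of 0.225, 0.1 and 0.163 CPM. ADCY4 and PDE6B passed the read filter in the unsorted E2 comparison and were not called there.

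The first comparison asks what 6 hours of E2 changed in sorted cells. A pair of cyclase genes, 1 phosphodiesterase gene and 3 exchange factor genes were higher with E2, while 3 phosphodiesterase genes and 1 regulatory kinase subunit gene were lower. ADCY5 rose most, by 2.15-fold, and PDE4D fell most, to 0.703 of its vehicle level. With replicate number as a block, 10 of 38 tested members (26.3%) passed an adjusted p of 0.05, 6 higher and 4 lower. Over all genes 13.2% of 14334 passed, 7.03% higher and 6.2% lower. The median log2 fold change was 0.04 over the members and 0.00 over all genes tested. These calls rest on the pairing of libraries by replicate number: without the block, 0 of the 10 passed in edgeR, and 196 genes passed in all.

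In unsorted cells fewer members, and fewer of all genes, were called for the same treatment. ADCY5, ADCY1 and PDE7B were higher with E2, and PDE10A and PRKAR2B were lower. These 5 are 12.5% of the 40 members tested. Over all genes 5.24% of 15083 passed, 2.86% higher and 2.37% lower. The median log2 fold change was -0.04 over the members and -0.01 over all genes. Without the block ADCY5 alone passed. In bulk libraries such as these, fewer cells of a type and less RNA per cell cannot be told apart.

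Among the cyclases, ADCY5 (ENSOARG00000020186) carried the largest E2 effect in both cell preparations. It encodes a cyclase that calcium and inhibitory G proteins restrain. In sorted cells its lowest, median and highest levels were 10.2, 21.3 and 44.8 CPM with E2, and 8.2, 11.6 and 15.6 CPM with vehicle. The E2 library was the higher one in 6 of 6 replicate pairs, although the groups overlapped. The log2 fold change was 1.10 ± 0.16 (SE; adjusted p = 0.00087, and 0.14 without the block, edgeR).

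In unsorted cells ADCY5 stood at 10.3, 17.3 and 20.2 CPM (lowest, median and highest) with E2, and at 4.46, 5.35 and 9.17 CPM with vehicle. The lowest E2 library was above the highest vehicle library, and no other member had E2 groups that did not overlap. The share of all genes with such separate E2 groups was not computed. Its log2 fold change was 1.67 ± 0.20 (SE), or 3.18-fold, with an adjusted p of 0.002, and it stood at 1.49 with an adjusted p of 0.0065 without the block. Both effects were larger in the deeper replicates. In sorted cells the log2 fold change was 0.65 in replicates 1 to 3 (adjusted p = 0.054) and 1.28 in replicates 4 to 6 (adjusted p = 1.8e-05). In unsorted cells the set values were 0.96 (adjusted p = 0.083) and 1.92 (adjusted p = 2.7e-07). The difference between the sets, tested over all genes, missed the threshold for ADCY5 in sorted cells (adjusted p = 1) and in unsorted cells (adjusted p = 0.76).

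ADCY1 (ENSOARG00000013527), a cyclase that calcium and calmodulin stimulate, was also higher with E2. Its sorted levels were 8.71, 12.7 and 25.3 CPM with E2 and 3.1, 6.84 and 14.9 CPM with vehicle (lowest, median, highest). The E2 library exceeded its vehicle partner in 6 of 6 pairs, while the groups overlapped widely. The log2 fold change was 0.82 ± 0.12 (SE; adjusted p = 4.5e-05, and 0.66 without the block).

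In unsorted cells ADCY1 was at 2.51, 5.3 and 11.4 CPM with E2 and at 2.74, 3.77 and 4.59 CPM with vehicle, higher with E2 in 5 of 6 pairs. It rose by 0.65 ± 0.14 on the log2 scale (adjusted p = 0.0068, and 1 without the block). Leaving out replicate 4 or replicate 6 ended that call, with adjusted p up to 0.069. In the fit over all 24 libraries, which shares 1 spread and 1 set of replicate effects between the preparations, the unsorted ADCY1 call was also lost (adjusted p = 0.16).

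The 5 other tested cyclases, ADCY2, ADCY3, ADCY6, ADCY7 and ADCY9, were not called for E2 in either preparation. Their log2 fold changes ran from -0.08 for ADCY6 to 0.23 for ADCY7 in sorted cells, and from -0.11 for ADCY9 to 0.01 for ADCY7 in unsorted cells.

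**Figure D1:**
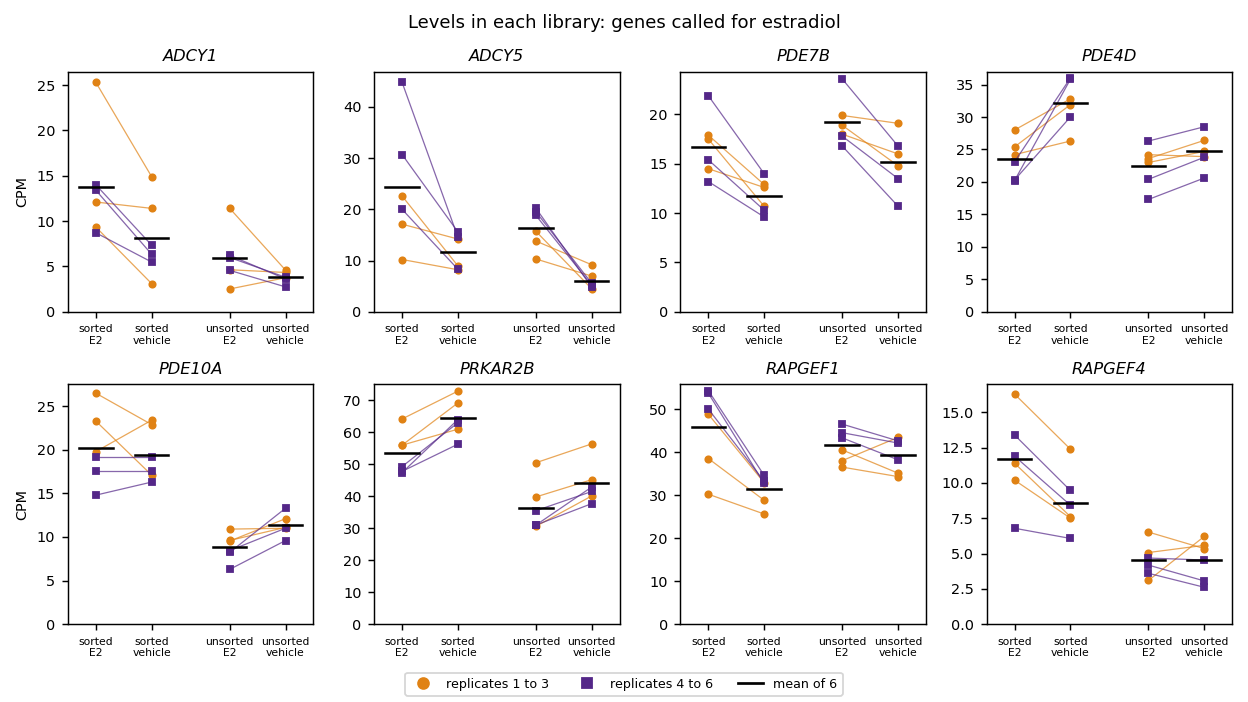
Each point is 1 library, on a CPM axis that starts at 0, for 8 genes called for E2 in sorted or unsorted cells. Lines join libraries of the same replicate number, colours separate replicates 1 to 3 from 4 to 6, and black bars are means of 6. Most lines tilt the same way within a panel while the groups overlap, except for ADCY5 in unsorted cells, where E2 libraries lie between 10.3 and 20.2 CPM and vehicle libraries between 4.46 and 9.17 CPM.

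The phosphodiesterases moved in both directions. PDE7B (ENSOARG00000015035), which is specific for cAMP, was the one that rose. In sorted cells its lowest, median and highest levels were 13.2, 16.5 and 21.9 CPM with E2 and 9.61, 11.7 and 14 CPM with vehicle, and in unsorted cells they were 16.8, 18.5 and 23.6 CPM with E2 and 10.7, 15.4 and 19.1 CPM with vehicle. E2 libraries were higher in 6 of 6 pairs in both preparations, and each pair of groups overlapped. It rose on the log2 scale by 0.53 ± 0.08 (adjusted p = 0.00012, and 0.14 without the block) in sorted and 0.41 ± 0.08 (adjusted p = 0.0015, and 1 without the block) in unsorted cells.

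PDE4D (ENSOARG00000007210), one of the cAMP-specific type 4 enzymes, was lower with E2 in sorted cells. Its levels there were 20.2, 23.7 and 28 CPM with E2 and 26.3, 32.3 and 36 CPM with vehicle. All 6 pairs were lower with E2, with a narrow overlap between the groups. The log2 fold change was -0.51 ± 0.08 (adjusted p = 0.00014, and 0.081 without the block); it was -0.22 in replicates 1 to 3 (adjusted p = 0.37) and -0.68 in replicates 4 to 6 (adjusted p = 0.00013). In unsorted cells PDE4D was at 17.3, 23.3 and 26.3 CPM with E2 and 20.6, 24.3 and 28.5 CPM with vehicle, a log2 fold change of -0.16 ± 0.06 that was not called (adjusted p = 0.16).

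PDE4B, another type 4 enzyme, and PDE9A, a cyclic GMP-specific one, were called lower with E2 in sorted cells by small margins. PDE4B was at 2.57, 7.55 and 10 CPM with E2 and 3.44, 8.69 and 14.2 CPM with vehicle, lower in 6 of 6 pairs, with a log2 fold change of -0.32 ± 0.10 (adjusted p = 0.039, and 1 without the block). PDE9A was at 1.3, 3.86 and 5.6 CPM with E2 and 2.73, 4.53 and 8.88 CPM with vehicle, lower in 5 of 6 pairs, with a log2 fold change of -0.49 ± 0.16 (adjusted p = 0.04, and 1 without the block). Both genes had strongly overlapping groups. The PDE4B call was lost when replicate 1, 2, 3, 5 or 6 was left out (adjusted p up to 0.17) and the PDE9A call when replicate 1, 2, 4 or 5 was (up to 0.38). DESeq2 called neither, at adjusted p = 0.2 for PDE4B and 0.19 for PDE9A.

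PDE10A (ENSOARG00000004847), which hydrolyses both cyclic nucleotides, was lower with E2 in unsorted cells. There it stood at 6.28, 8.99 and 10.9 CPM with E2 and 9.59, 11.1 and 13.3 CPM with vehicle, lower in 6 of 6 pairs, and the groups overlapped. Its log2 fold change was -0.45 ± 0.09 (adjusted p = 0.0031, and 1 without the block), and the fit over all 24 libraries did not call it (adjusted p = 0.095). In sorted cells PDE10A was at 14.8, 19.5 and 26.5 CPM with E2 and 16.3, 18.4 and 23.4 CPM with vehicle, with a log2 fold change of 0.03 ± 0.08 (adjusted p = 0.89).

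Over all genes 13.2% were called for E2 in sorted and 5.24% in unsorted cells. Of the 17 phosphodiesterases tested in both preparations, 12 were called for E2 in neither. They are PDE1B, PDE1C, PDE2A, PDE3A, PDE3B, PDE4A, PDE5A, PDE6A, PDE6D, PDE7A, PDE8A and PDE12. In sorted cells their log2 fold changes ran from -0.22 for PDE3A (adjusted p = 0.096), a cyclic GMP-inhibited enzyme, to 0.32 for PDE2A (adjusted p = 0.21), a cyclic GMP-stimulated one. In unsorted cells they ran from -0.19 for PDE6A to 0.23 for PDE3B (adjusted p = 0.074). Not all names in this family mark cAMP enzymes: PDE6D encodes a chaperone of prenylated proteins, and PDE12 a mitochondrial enzyme that shortens RNA tails.

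Among the kinase A subunits, PRKAR2B (ENSOARG00000004957), the type II beta regulatory subunit, was lower with E2 in both preparations. Its sorted levels were 47.4, 52.7 and 64.2 CPM with E2 and 56.3, 63.5 and 72.9 CPM with vehicle. Its unsorted levels were 30.6, 33.3 and 50.5 CPM with E2 and 37.7, 42.2 and 56.4 CPM with vehicle. All 6 pairs were lower with E2 in each preparation, and in each the groups overlapped. The log2 fold change was -0.29 ± 0.05 in sorted cells (adjusted p = 0.00059, and 0.41 without the block) and -0.29 ± 0.05 in unsorted cells (adjusted p = 0.0013, and 1 without the block).

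The catalytic subunits were not called for E2. PRKACA (ENSOARG00000006476) stood at 91.7, 115 and 149 CPM with E2 and 90.8, 116 and 148 CPM with vehicle in sorted cells, and at 94, 106 and 118 CPM with E2 and 98.8, 102 and 118 CPM with vehicle in unsorted cells. The groups lay on top of each other, with log2 fold changes of 0.02 ± 0.04 in sorted and 0.01 ± 0.04 in unsorted cells. PRKACB stood at 10.1, 12.5 and 14.9 CPM with E2 and 12.6, 14.6 and 16.5 CPM with vehicle in sorted cells, a log2 fold change of -0.23 ± 0.10 (adjusted p = 0.19). In unsorted cells PRKACB was at 9.85, 12.5 and 18.9 CPM with E2 and 10, 13.9 and 16.4 CPM with vehicle (-0.06 ± 0.08, adjusted p = 0.83).

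The 3 other regulatory subunits were not called either. PRKAR1A was at 446, 577 and 731 CPM with E2 and 449, 586 and 777 CPM with vehicle in sorted cells, and at 431, 460 and 564 CPM with E2 and 454, 476 and 510 CPM with vehicle in unsorted cells. Its log2 fold changes were 0.01 ± 0.04 and -0.01 ± 0.04. PRKAR1B was at 4.65, 6.03 and 6.57 CPM with E2 and 4.31, 5.36 and 6.32 CPM with vehicle in sorted cells, with log2 fold changes of 0.11 ± 0.12 there and 0.07 ± 0.11 in unsorted cells. The type II alpha subunit PRKAR2A had log2 fold changes of 0.04 ± 0.07 in sorted and -0.01 ± 0.05 in unsorted cells. Of the 4 regulatory subunits 1 was thus called for E2, and of the 2 catalytic ones 0. Over all genes 13.2% were called in sorted and 5.24% in unsorted cells, and counts this small show no difference between the subunit classes.

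Of the 5 exchange factors, 3 rose and 0 fell with E2 in sorted cells, beside 7.03% higher and 6.2% lower over all genes. RAPGEF1 (ENSOARG00000006521), a Rap activator that binds the adaptor Crk and has no cAMP-binding domain, was at 30.2, 49.4 and 54.3 CPM with E2 and 25.6, 32.8 and 34.6 CPM with vehicle. Every pair was higher with E2, and 5 of 6 E2 libraries lay above all vehicle libraries. It rose by 0.57 ± 0.06 on the log2 scale (adjusted p = 1.1e-06, and 0.065 without the block). In unsorted cells RAPGEF1 was at 36.5, 41.9 and 46.5 CPM with E2 and 34.3, 40.1 and 43.4 CPM with vehicle, and its log2 fold change of 0.10 ± 0.05 was not called (adjusted p = 0.45).

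RAPGEF4 (ENSOARG00000000850), the cAMP-activated EPAC2, was at 6.79, 11.6 and 16.3 CPM with E2 and 6.07, 8.02 and 12.4 CPM with vehicle in sorted cells. It was higher with E2 in 6 of 6 pairs, within overlapping groups, and rose by 0.43 ± 0.09 on the log2 scale (adjusted p = 0.0029, and 0.75 without the block). The fit over all 24 libraries did not call it (adjusted p = 0.1). In unsorted cells its log2 fold change was 0.15 ± 0.14 (adjusted p = 0.72).

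RAPGEF2, a Rap activator with a PDZ domain, was at 114, 136 and 146 CPM with E2 and 96.3, 116 and 145 CPM with vehicle in sorted cells. The rise was small, 0.18 ± 0.04 on the log2 scale (adjusted p = 0.0078, and 1 without the block), and was present in 6 of 6 pairs. The call was lost without replicate 5 (adjusted p = 0.053) and in the fit over all 24 libraries (0.065). RAPGEF3, the EPAC1 gene, and RAPGEF5 were not called, with sorted log2 fold changes of 0.14 ± 0.20 and -0.21 ± 0.11 and unsorted ones of -0.21 ± 0.15 and -0.17 ± 0.10.

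None of the 3 transcription factors that protein kinase A phosphorylates was called for E2. Over all genes 13.2% were called in sorted and 5.24% in unsorted cells. CREB1 was at 20.9, 26.1 and 31.7 CPM with E2 and 24.9, 26.4 and 33.1 CPM with vehicle in sorted cells (-0.08 ± 0.06), and its unsorted log2 fold change was -0.12 ± 0.06. CREM was at 12.3, 16.2 and 18.7 CPM with E2 and 13.3, 15.3 and 20.8 CPM with vehicle in sorted cells (0.00 ± 0.09), and its unsorted log2 fold change was 0.13 ± 0.07. ATF1 was at 38.2, 40 and 43 CPM with E2 and 32.1, 37.5 and 39.7 CPM with vehicle in sorted cells (0.10 ± 0.06), and its unsorted log2 fold change was 0.11 ± 0.06. The adjusted p-values of these 6 tests ran from 0.37 to 1.

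**Figure D2:**
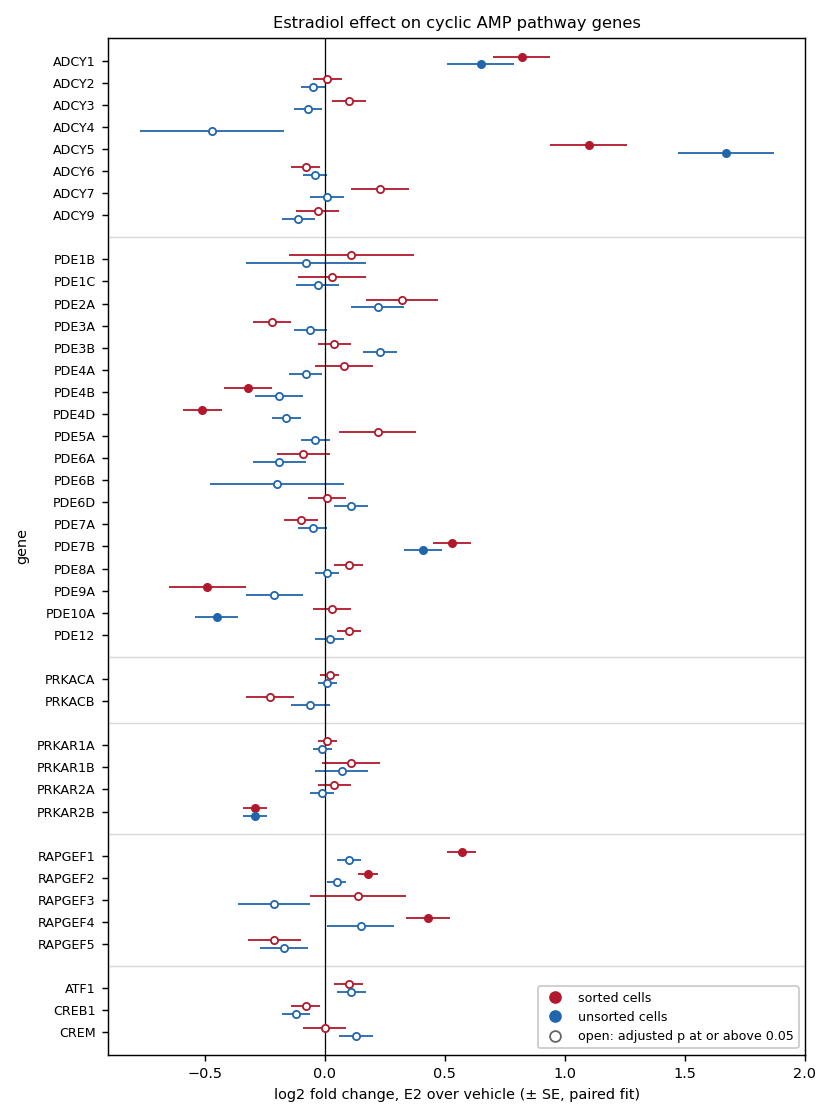
Points are log2 fold changes of E2 over vehicle for each tested gene, with bars of 1 standard error from the paired fit, in sorted cells (red) and unsorted cells (blue); filled points have an adjusted p under 0.05 over all genes. ADCY5 lies farthest to the right at 1.10 and 1.67, PDE4D lies farthest to the left among the filled points at -0.51 in sorted cells, and PRKAR2B has the same value of -0.29 in both.

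Whether the E2 effect itself differed between sorted and unsorted cells was tested over all 24 libraries. That fit gave each replicate number 1 effect shared by both preparations. It thus used the pairing of E2 and vehicle libraries within a preparation only in part, and a difference that was not called can have been missed. RAPGEF1 was the 1 member of 38 that passed (2.63%, against 0.463% of 15134 over all genes, 0.33% higher and 0.132% lower), and the median difference was 0.04 over the members and 0.01 over all genes. Its E2 effect was larger in sorted cells by 0.46 ± 0.10 on the log2 scale (adjusted p = 0.043, and 1 without the block). This call was lost when replicate 1, 3, 4, 5 or 6 was left out, with adjusted p up to 0.25, and with no filter on low counts (0.078). For the other members called in 1 preparation only, no difference was shown: it was -0.32 ± 0.13 for PDE4D (adjusted p = 0.65), 0.46 ± 0.17 for PDE10A (0.56), 0.35 ± 0.22 for RAPGEF4 (1), 0.11 ± 0.08 for RAPGEF2 (1), -0.13 ± 0.20 for PDE4B (1) and -0.24 ± 0.28 for PDE9A (1). The larger ADCY5 effect in unsorted cells gave a difference of -0.52 ± 0.33 (adjusted p = 1).

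The sort itself was the larger contrast. With E2, 22 of 38 members differed between sorted and unsorted libraries (57.9%), 11 higher and 11 lower, beside 65.7% of 14545 over all genes, 33.9% higher and 31.8% lower. With vehicle the count was 26 of 38 (68.4%), 14 higher and 12 lower, beside 63.6% of 14468, 32.5% higher and 31.1% lower. The members' shares are therefore near those of all genes, and the median log2 fold change was 0.13 with E2 and 0.12 with vehicle over the members, against 0.02 in each case over all genes. These comparisons use the same E2 and vehicle libraries as the E2 comparisons above, so the values are given side by side and are not independent of one another. Without the block 18 members passed with E2 and 22 with vehicle. How the unsorted cells were handled while the others were sorted is not given in the labels, so handling and the cell types kept cannot be told apart.

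Markers of other cell types moved with the sort. The sum of 11 fibroblast and pericyte markers was 981 to 2440 CPM in sorted E2, 959 to 1970 in sorted vehicle, 6490 to 13000 in unsorted E2 and 5700 to 13600 CPM in unsorted vehicle libraries. The sum of 9 folliculostellate and stem cell markers was 897 to 1700 CPM in sorted E2 and 1080 to 1870 CPM in sorted vehicle libraries, against 4420 to 6550 in unsorted E2 and 4820 to 6840 CPM in unsorted vehicle libraries. The larger part of this sum was VIM. Its means were 986 CPM in sorted E2, 976 in sorted vehicle, 3890 in unsorted E2 and 4050 CPM in unsorted vehicle libraries. The sum of 10 endothelial markers was 18.2 to 53.8 CPM in sorted E2 and 19 to 50.2 CPM in sorted vehicle libraries, against 44.2 to 90.7 and 40.5 to 92.1 CPM in unsorted E2 and unsorted vehicle libraries. Under each treatment 7 of 10 tested fibroblast and pericyte, 7 of 8 folliculostellate and stem cell and 6 of 9 endothelial markers were lower in sorted cells. In each of these lists 1 gene was higher. Over all genes 31.8% were lower with E2 and 31.1% with vehicle. Somatotrope markers, 5 in the list, summed to 9070 to 77500 CPM in sorted E2 and 9320 to 94500 CPM in sorted vehicle libraries, against 5340 to 58900 in unsorted E2 and 5660 to 50200 CPM in unsorted vehicle libraries. All 5 lactotrope and all 4 tested corticotrope markers were higher in sorted cells under each treatment. Of the tested somatotrope markers 4 of 4 were higher with vehicle and 4 of 5 with E2. Of 4 thyrotrope markers 3 were higher and 1 lower with vehicle, and 2 were higher and 1 lower with E2. Over all genes 33.9% were higher with E2 and 32.5% with vehicle. The part of these cell types in the differences that follow was not tested.

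Among the cyclases, ADCY7 (ENSOARG00000017199), of the class that G-protein beta-gamma subunits stimulate, had the largest difference of any member. It was at 4.9, 7.06 and 13 CPM in sorted E2 and 4.1, 6 and 10.5 CPM in sorted vehicle libraries. In unsorted cells it was at 37, 41.4 and 62.9 CPM with E2 and 31.4, 38.8 and 71 CPM with vehicle. All sorted libraries lay below all unsorted ones, and the log2 fold change was -2.66 ± 0.17 with E2 (adjusted p = 1.1e-06) and -2.85 ± 0.13 with vehicle (adjusted p = 2.6e-08). ADCY3 was lower in sorted cells in 6 of 6 pairs, with log2 fold changes of -0.55 ± 0.12 with E2 and -0.68 ± 0.11 with vehicle. ADCY6, a relative of ADCY5 that calcium also restrains, was lower in 6 of 6 pairs too (-0.53 ± 0.09 with E2 and -0.48 ± 0.11 with vehicle).

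The 2 cyclases that rose with E2 were also higher in sorted cells. ADCY1 was higher by 1.22 ± 0.17 on the log2 scale with E2 (adjusted p = 0.0001; 6 of 6 pairs) and by 0.96 ± 0.22 with vehicle (adjusted p = 0.0028; 5 of 6 pairs). ADCY5 was higher by 0.48 ± 0.16 with E2 (adjusted p = 0.021; 4 of 6 pairs) and by 0.98 ± 0.18 with vehicle (adjusted p = 0.00058; 6 of 6 pairs). The ADCY5 call with E2 was lost without replicate 3, 5 or 6 (adjusted p up to 0.079) and without the block (0.12). ADCY2 and ADCY9 were not called: ADCY2 was at 30.4, 48 and 59.7 CPM in sorted E2, 31.6, 47.5 and 53.1 in sorted vehicle, 39.3, 47.7 and 61 in unsorted E2 and 34.6, 48.9 and 59.4 CPM in unsorted vehicle libraries.

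**Figure D3:**
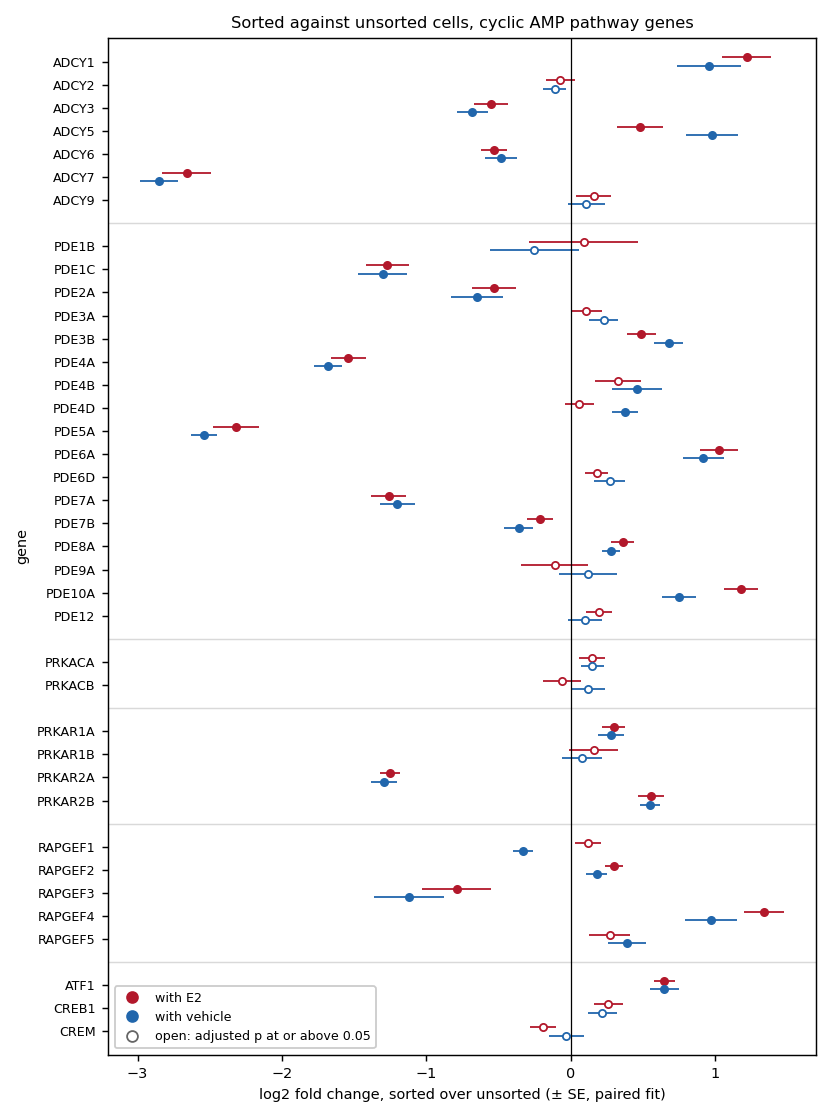
Points are log2 fold changes of sorted over unsorted cells for each tested gene, with bars of 1 standard error from the paired fit, with E2 (red) and with vehicle (blue); filled points have an adjusted p under 0.05 over all genes. ADCY7 and PDE5A lie farthest to the left, at -2.66 and -2.32 with E2 and -2.85 and -2.54 with vehicle, and RAPGEF4 and ADCY1 farthest to the right with E2, at 1.34 and 1.22.

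Of the 17 tested phosphodiesterases, 6 were lower in sorted cells under both treatments, beside 31.8% of all genes with E2 and 31.1% with vehicle. The groups of 4 of them did not overlap, but the share of all genes with separate groups was not computed. PDE5A (ENSOARG00000016017), a cyclic GMP-specific enzyme, was at 7.03, 19.2 and 25.3 CPM in sorted E2 and 10.6, 12.9 and 21.2 CPM in sorted vehicle libraries, against 55.6, 80.3 and 99.2 CPM in unsorted E2 and 61.5, 80.6 and 106 CPM in unsorted vehicle libraries. No sorted library reached an unsorted one. The log2 fold change was -2.32 ± 0.16 with E2 (adjusted p = 3.1e-06) and -2.54 ± 0.09 with vehicle (adjusted p = 1.1e-08).

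PDE4A, another type 4 enzyme, was at 3.97, 5.66 and 7.12 CPM in sorted E2 and 4.61, 5.52 and 6 CPM in sorted vehicle libraries, against 14.1, 17.1 and 19.4 CPM in unsorted E2 and 16.2, 17 and 18.8 CPM in unsorted vehicle libraries. Its groups were separate, with log2 fold changes of -1.54 ± 0.12 with E2 and -1.68 ± 0.10 with vehicle. The calcium-stimulated PDE1C was at 2.06, 3.26 and 5.4 CPM in sorted E2 and 2.08, 3.11 and 5.63 CPM in sorted vehicle libraries, against 6.25, 7.63 and 10.1 CPM in unsorted E2 and 6.62, 8.48 and 9.37 CPM in unsorted vehicle libraries. Its log2 fold changes were -1.27 ± 0.15 with E2 and -1.30 ± 0.17 with vehicle. PDE7A, the cAMP-specific relative of PDE7B, was at 19.8, 21.9 and 23.6 CPM in sorted E2 and 19.9, 23.8 and 25.8 CPM in sorted vehicle libraries, against 35.6, 53.6 and 81.1 CPM in unsorted E2 and 35.9, 52.3 and 92.2 CPM in unsorted vehicle libraries. For these 4 genes, PDE5A included, the sorted groups lay wholly below the unsorted ones under either treatment, and PDE7A had log2 fold changes of -1.26 ± 0.12 with E2 and -1.20 ± 0.12 with vehicle.

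PDE2A and PDE7B were lower by less. For PDE2A the log2 fold change was -0.53 ± 0.15 with E2 (adjusted p = 0.0098, and 0.071 without the block) and -0.65 ± 0.18 with vehicle (adjusted p = 0.0079). PDE7B, called higher with E2 above, was lower in sorted cells. With E2 its log2 fold change of -0.21 ± 0.09 was just past the threshold (adjusted p = 0.049), and that call was lost whichever of the 6 replicates was left out (up to 0.16) and without the block (0.24). With vehicle it was at -0.36 ± 0.10 (adjusted p = 0.011, and 0.065 without the block).

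Other phosphodiesterases were higher in sorted cells. PDE10A was at 14.8 to 26.5 CPM in sorted E2 and 16.3 to 23.4 CPM in sorted vehicle libraries, against 6.28 to 10.9 in unsorted E2 and 9.59 to 13.3 CPM in unsorted vehicle libraries. Its sorted groups lay wholly above the unsorted ones under each treatment, and its log2 fold change was 1.18 ± 0.12 with E2 (adjusted p = 1.4e-05) and 0.75 ± 0.12 with vehicle (adjusted p = 0.00034). PDE6A, a catalytic subunit of the photoreceptor enzyme, was at 4.46, 9.65 and 15.6 CPM in sorted E2 and 5.76, 10.8 and 14.9 CPM in sorted vehicle libraries, against 2.74, 4.55 and 8.23 CPM in unsorted E2 and 2.92, 4.92 and 9.22 CPM in unsorted vehicle libraries. Its groups overlapped, yet the sorted library was higher in 6 of 6 pairs, by 1.03 ± 0.13 with E2 (adjusted p = 6.1e-05) and 0.92 ± 0.14 with vehicle (adjusted p = 0.00015). PDE3B was higher by 0.49 ± 0.10 with E2 (adjusted p = 0.0019, and 0.17 without the block) and 0.68 ± 0.10 with vehicle, and PDE8A, a cAMP-specific enzyme, by 0.36 ± 0.08 with E2 and 0.28 ± 0.06 with vehicle. PDE4D was at 0.06 ± 0.10 with E2 (adjusted p = 0.62) and was higher by 0.38 ± 0.09 with vehicle (adjusted p = 0.0034). PDE4B was not called with E2 (0.33 ± 0.16) and was higher by 0.46 ± 0.17 with vehicle (adjusted p = 0.038, and 0.17 without the block), a call lost without replicate 1, 2, 4 or 5.

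PDE1B, PDE3A, PDE6D, PDE9A and PDE12 were not called between sorted and unsorted cells under either treatment. PDE12 differed between the depth sets: its vehicle log2 fold change was -0.23 in replicates 1 to 3 and 0.39 in replicates 4 to 6 (adjusted p = 0.0021), and the difference between the sets was 0.60 ± 0.14 (adjusted p = 0.013).

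Of the 4 regulatory kinase subunits, 2 were higher and 1 lower in sorted cells under each treatment. Over all genes 33.9% were higher and 31.8% lower with E2, and 32.5% were higher and 31.1% lower with vehicle. PRKAR2A (ENSOARG00000016132) was at 16.3, 27.6 and 32.7 CPM in sorted E2 and 20.1, 24.8 and 30.7 CPM in sorted vehicle libraries, against 42.3, 63.6 and 80.6 CPM in unsorted E2 and 45.7, 62 and 78.9 CPM in unsorted vehicle libraries. The groups were separate, with log2 fold changes of -1.25 ± 0.07 with E2 (adjusted p = 4.4e-07) and -1.29 ± 0.09 with vehicle (adjusted p = 5.1e-07). PRKAR2B, the other type II regulatory subunit gene, was higher instead, by 0.56 ± 0.09 with E2 (adjusted p = 0.00036) and 0.55 ± 0.07 with vehicle (adjusted p = 5.5e-05), in 6 of 6 pairs each. Its levels, given above, overlapped between sorted and unsorted libraries.

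PRKAR1A was also higher in sorted cells, by 0.30 ± 0.08 with E2 (adjusted p = 0.0054; 6 of 6 pairs) and 0.28 ± 0.09 with vehicle (adjusted p = 0.014; 5 of 6 pairs), and the vehicle call was lost without replicate 5 (adjusted p = 0.066). PRKAR1B, at 3.51, 5.11 and 6.41 CPM in unsorted E2 and 4.64, 5.03 and 5.43 CPM in unsorted vehicle libraries, was not called (0.16 ± 0.17 with E2 and 0.08 ± 0.14 with vehicle). The catalytic PRKACA and PRKACB were not called over all 6 replicates, at 0.15 ± 0.09 and -0.06 ± 0.13 with E2 and 0.15 ± 0.08 and 0.12 ± 0.12 with vehicle. In replicates 4 to 6 alone PRKACA was higher in sorted cells, by 0.33 with E2 (adjusted p = 0.0033) and 0.34 with vehicle (adjusted p = 0.0026), while in replicates 1 to 3 it stood at -0.07 and -0.06. The difference between the sets was 0.43 ± 0.10 with E2 (adjusted p = 0.024) and 0.37 ± 0.11 with vehicle (adjusted p = 0.049).

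The EPAC genes stood on opposite sides. RAPGEF4 was at 6.79, 11.6 and 16.3 CPM in sorted E2 and 6.07, 8.02 and 12.4 CPM in sorted vehicle libraries, against 3.09, 4.43 and 6.52 CPM in unsorted E2 and 2.61, 4.95 and 6.21 CPM in unsorted vehicle libraries. With E2 its groups were separate, and with vehicle 1 sorted library lay inside the unsorted range. It was higher in sorted cells by 1.34 ± 0.14 with E2 (adjusted p = 1.6e-05) and 0.97 ± 0.18 with vehicle (adjusted p = 0.00078). RAPGEF3 was at 0.558, 1.77 and 2.57 CPM in sorted E2 and 0.993, 1.45 and 1.92 CPM in sorted vehicle libraries, against 2.16, 2.8 and 3.84 CPM in unsorted E2 and 1.2, 3.34 and 4.46 CPM in unsorted vehicle libraries. Its groups overlapped, and it was lower in sorted cells in 6 of 6 pairs, with log2 fold changes of -0.79 ± 0.24 with E2 (adjusted p = 0.014, and 0.057 without replicate 6) and -1.12 ± 0.24 with vehicle (adjusted p = 0.0018).

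RAPGEF1 stood at 0.12 ± 0.09 on the log2 scale with E2 (adjusted p = 0.25) and was lower in sorted cells with vehicle, at -0.33 ± 0.07 (adjusted p = 0.0026; 6 of 6 pairs). RAPGEF2 was higher by 0.30 ± 0.06 with E2 (adjusted p = 0.0015) and 0.18 ± 0.07 with vehicle (adjusted p = 0.04, and 0.18 without the block), and leaving out any replicate but 3 ended its vehicle call. RAPGEF5 was not called with E2 (0.27 ± 0.14) and was higher with vehicle by 0.39 ± 0.13 (adjusted p = 0.024, and 0.21 without the block), a call lost without replicate 3, 5 or 6.

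ATF1 (ENSOARG00000017519) was the 1 transcription factor of the 3 that passed, beside 65.7% of all genes with E2 and 63.6% with vehicle. It was at 38.2, 40 and 43 CPM in sorted E2 and 32.1, 37.5 and 39.7 CPM in sorted vehicle libraries, against 22.5, 26.1 and 28.8 CPM in unsorted E2 and 21.6, 22.7 and 27.8 CPM in unsorted vehicle libraries. The sorted groups lay wholly above the unsorted ones, by 0.65 ± 0.07 with E2 (adjusted p = 1.9e-05) and 0.65 ± 0.10 with vehicle (adjusted p = 0.00015). CREB1, at 18.8, 21.4 and 25.6 CPM in unsorted E2 and 21.7, 22.6 and 28.5 CPM in unsorted vehicle libraries, narrowly missed, at 0.26 ± 0.10 with E2 (adjusted p = 0.052) and 0.22 ± 0.10 with vehicle (adjusted p = 0.07). In the fit over all 24 libraries CREB1 passed, at adjusted p = 0.011 with E2 and 0.029 with vehicle. CREM, at 15, 18.1 and 20.7 CPM in unsorted E2 and 13.6, 16.1 and 17.9 CPM in unsorted vehicle libraries, had log2 fold changes of -0.19 ± 0.09 with E2 and -0.03 ± 0.12 with vehicle and was not called.

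**Figure D4:**
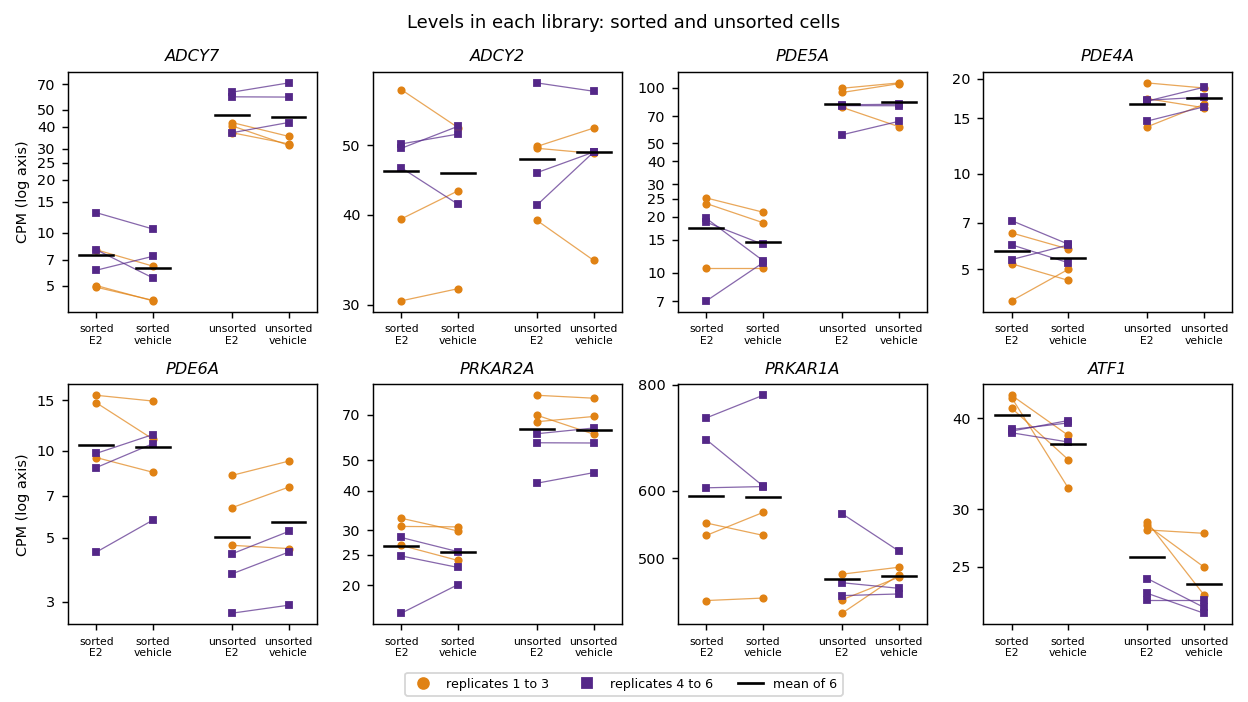
Each point is 1 library, on logarithmic axes of CPM, for 8 genes chosen to show separate and overlapping groups; lines join E2 and vehicle libraries of the same replicate number, and black bars are means of 6. ADCY7, PDE5A, PDE4A and PRKAR2A are lower in all 12 sorted than in all 12 unsorted libraries, ATF1 is higher in all 12, and the groups of ADCY2, PDE6A and PRKAR1A overlap.

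Genes upstream and downstream of the members were examined as lists. Of 20 receptors that couple to cyclases, 13 were tested for E2 in sorted cells, 4 rose and 1 fell, beside 7.03% higher and 6.2% lower over all genes. The receptors' median log2 fold change was 0.16 against 0.00 over all genes. The somatostatin receptor genes SSTR5 and SSTR2, whose products inhibit cyclases, rose by 1.10 ± 0.13 (means of 9.02 CPM with E2 and 4.39 CPM with vehicle; adjusted p = 2.5e-06, and 0.2 without the block) and 1.59 ± 0.24 (2.02 CPM with E2 and 0.742 CPM with vehicle; adjusted p = 7.4e-05, and 0.16 without it). GHRHR, the growth hormone-releasing hormone receptor gene, rose by 0.18 ± 0.05, and the beta-1 adrenergic receptor gene ADRB1 fell by 0.72 on the log2 scale. In unsorted cells 4 of 15 tested receptors rose and 0 fell, beside 2.86% higher and 2.37% lower over all genes (medians 0.12 and -0.01), with SSTR5 at 0.89 ± 0.16, SSTR2 at 1.24 ± 0.28, GHRHR at 0.27 ± 0.05 and the dopamine receptor gene DRD2 at 0.17 ± 0.05, whose call was lost without replicate 1, 3, 5 or 6. Without the block none of the receptors named here passed for E2.

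The other lists are set beside 13.2% of all genes called for E2 in sorted and 5.24% in unsorted cells, with changes given on the log2 scale. Of 6 tested G-protein alpha subunits, GNAI1, an inhibitory one, fell in sorted cells (-0.24 ± 0.05, adjusted p = 0.0031) and GNAO1 in unsorted cells (-0.24 ± 0.07, adjusted p = 0.034), while GNAS, the stimulatory subunit, stood at -0.09 ± 0.04 and -0.02 ± 0.04. Of 13 anchoring proteins that tether protein kinase A, AKAP10 rose (0.25 ± 0.06) and AKAP11 (-0.19 ± 0.04) and AKAP5 (-0.28 ± 0.07) fell in sorted cells. In unsorted cells 0 of 12 were called. Of 6 CREB coactivators and salt-inducible kinases, CRTC3 rose in sorted cells by 0.42 ± 0.08 (adjusted p = 0.0009), and 0 were called in unsorted cells. Of 9 other cAMP effectors, the Rap gene RAP1B fell in sorted cells (-0.17 ± 0.05), and in unsorted cells 1 rose and 0 fell. Of 5 tested cyclic GMP cyclases and kinases, NPR2 (0.42 ± 0.05) and GUCY1B1 (0.29 ± 0.06) rose and PRKG2 (-0.42 ± 0.12) fell in sorted cells, and PRKG2 fell in unsorted cells (-0.66 ± 0.16). The kinase inhibitor PKIG and the kinase PRKX were not called in any comparison. Of the genes in this paragraph, NPR2 in sorted cells passed without the block (adjusted p = 0.023). Calls lost with 1 replicate left out were those of AKAP10 and AKAP5 (without replicate 6), RAP1B (1, 4 or 5) and PRKG2 (2, 5 or 6) in sorted cells, and GNAO1 (2 to 6) and PRKG2 (5) in unsorted cells.

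Of 14 genes commonly described as CREB targets, 1 rose and 5 fell with E2 in sorted cells, beside 7.03% higher and 6.2% lower over all genes. Their median log2 fold change was -0.22 against 0.00 over all genes. RGS2, whose product shortens G-protein signals, had the smallest adjusted p and fell to a mean of 56 CPM with E2 against 103 CPM with vehicle (-0.89 ± 0.05, adjusted p = 1.9e-10, and 0.00043 without the block). PER1 (-0.44 ± 0.05), JUNB (-0.46 ± 0.08), DUSP1 (-0.34 ± 0.07) and FOS (-0.90 ± 0.17) fell and NR4A3 (0.66 ± 0.18) rose. In unsorted cells 4 of 14 rose and 0 fell, beside 2.86% and 2.37% of all genes, with a median of 0.13 against -0.01: NR4A2 (0.36 ± 0.08), NR4A3 (0.85 ± 0.19), FOS (0.29 ± 0.07) and BDNF (0.31 ± 0.09). Of these genes RGS2, in sorted cells, passed without the block. The calls of FOS (without replicate 2, 3, 4 or 5) and NR4A3 (2, 5 or 6) in sorted cells and of NR4A2 (4 or 6), FOS (5) and BDNF (2, 4, 5 or 6) in unsorted cells were lost with 1 replicate left out. The E2 effect differed between the preparations for RGS2 (-0.74 ± 0.11, adjusted p = 0.0021) and FOS (-1.23 ± 0.26, adjusted p = 0.043, lost whichever of the 6 replicates was left out).

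With E2, 8 of the 14 CREB targets were higher in sorted than in unsorted libraries, and with vehicle 13 were, with medians of 0.71 and 0.88 against 0.02 over all genes. Of all genes 33.9% were higher and 31.8% lower in sorted cells with E2, and 32.5% were higher and 31.1% lower with vehicle, which is the background of each count in this paragraph. FOS had a mean of 396 CPM in sorted against 22.6 CPM in unsorted vehicle libraries (4.11 ± 0.21). FOS is also an immediate-early gene, and the part of handling during the sort in its level was not tested. Of 6 G-protein alpha subunits 3 were higher in sorted cells under both treatments, GNAS, GNAI1 and GNAO1, and 1 was lower, the inhibitory GNAI2 (-0.45 ± 0.07 with E2 and -0.43 ± 0.06 with vehicle). GNAS was at means of 7960 CPM with E2 and 8420 CPM with vehicle against 4760 and 4820 CPM in unsorted E2 and unsorted vehicle libraries (0.78 ± 0.09 with vehicle). AKAP5 was higher (2.27 ± 0.12) and AKAP12 lower (-1.63 ± 0.09) with vehicle, in a list where 8 of 12 tested genes were higher and 2 lower under both treatments (medians of 0.57 with E2 and 0.66 with vehicle). Of 14 receptors tested with vehicle, 7 were higher and 4 lower (median 0.54), among them SSTR3, another somatostatin receptor gene, which was higher (2.39 ± 0.25). Of 6 CREB coactivators and salt-inducible kinases, 5 were higher under both treatments, among them EP300 (0.70 ± 0.10 with vehicle) and CREBBP (0.73 ± 0.11 with vehicle). Of 9 genes listed as other cAMP effectors, 4 were higher and 2 lower under each treatment. Among the higher ones was the channel gene HCN3 (1.53 ± 0.15 with E2 and 1.43 ± 0.17 with vehicle). The lower ones, named after their values were seen, were the Rap genes RAP2B and RAP1B with E2 (-0.82 ± 0.13 and -0.45 ± 0.06) and RAP2B and RAP2C with vehicle (-0.62 ± 0.12 and -0.48 ± 0.13). Among the cyclic GMP kinases PRKG2 was higher (2.44 ± 0.20) and PRKG1 lower (-1.45 ± 0.25) with vehicle.

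Each of the authors' deposited tables lists 43 of the members. In the authors' deposited table for E2 in sorted cells ADCY5 is the 1 member under a false discovery rate of 0.05, at a log2 fold change of 1.07 (false discovery rate 0.039). In the authors' deposited table for unsorted cells it is ADCY5 again, at 1.49 (1.5e-06). In the authors' deposited table of sorted and unsorted controls 20 members pass, and 18 of them are among the 26 called here. That table's fold changes run unsorted over sorted. The others that pass there are ADCY4, at 1.43 (false discovery rate 0.011), and ADCY8, at -1.59 (0.027). Both failed the read filter here and were not tested between sorted and unsorted cells.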

How the data were processed

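The authors deposited whole-number read counts per gene for each of the 24 libraries, in 3 tables with Ensembl sheep identifiers, counted with featureCounts 1.5.1 per the submitters' processing notes. No source used here names the aligner, the genome build or the strand setting. Hence no coordinates are given, and reads of genes that overlap on opposite strands may be mixed. Each of the 12 vehicle libraries is deposited in 2 of the tables, with 0 differing values. The authors' deposited comparison tables hold p-values and log2 values of edgeR runs, as their names and headers say, and were set beside the results but entered no test.

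Each comparison was fitted in edgeR 4.0.16 (R 4.3.3) on the counts of its own 12 libraries, or on all 24 for the difference of the E2 effects: TMM normalization, filterByExpr, robust glmQLFit, replicate number as a block and the 2-sided quasi-likelihood F-test, with Benjamini-Hochberg adjustment over all genes tested and a threshold of 0.05. Fits over all 24 libraries gave each replicate number 1 effect shared by sorted and unsorted libraries, not 1 within each preparation. The standard error is the log2 fold change over the square root of F. The selection of these genes asks for pairing by replicate number, but no label says that equal numbers share a culture, so p-values may in part measure technical spread. It was checked in the counts: libraries of equal number, centred by group, correlated at r = 0.661 to 0.859 between E2 and vehicle in sorted cells, 0.57 to 0.837 in unsorted cells, 0.29 to 0.513 between sorted and unsorted vehicle libraries and 0.317 to 0.524 between the E2 ones. Centring by group alone leaves differences between the depth sets in these values. Centred by group and depth set, the ranges were 0.446 to 0.747, 0.33 to 0.824, 0.296 to 0.552 and 0.255 to 0.64, in the same order. Replicates 1 to 3 and 4 to 6 differ in depth and were treated as possible batches, although no label names them. Values for 1 depth set were fitted on its libraries alone.

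Alternatives were no block, RLE size factors, DESeq2 1.42.0, no filter, a mean of at least 1 CPM, 1 fit over 24 libraries, a non-robust fit, each depth set and leaving out each replicate number; a test of the difference between the depth sets was added after seeing the data. The scripts were tested on simulated data. Called members with a mean of at least 1 CPM, up to the 12 largest changes in a comparison, and the kinase subunits and transcription factors are given with their levels; of each pathway list up to 4 genes with the smallest p, from which the text gives a selection. The members and lists were chosen with earlier results of these data known. Reads without molecular identifiers are not separate molecules, so depth gives only the counting part of the error. Sequences of these genes are not used here. Some genes of the pathway lists are not reported here.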

Additional observations from a re-analysis of the deposited data

Results flagged for a closer look

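Among 152 sets of 6 libraries, the 4 groups of each of 38 tested members, 5 held a library whose gap to its nearest neighbour exceeded Dixon's 95% critical value as a share of the group's range. Chance flags about 1 in 20 groups. ADCY1 stood at 25.3 CPM in sorted E2 replicate 1, with the next library at 14 CPM. ADCY9 was at 10.1 CPM in unsorted E2 replicate 2, below the next at 13.5 CPM. CREB1 was at 28.5 CPM and PDE12 at 63.7 CPM in unsorted vehicle replicate 3, with the next libraries at 23.9 and 55.4 CPM. PRKAR1A was at 564 CPM in unsorted E2 replicate 5, with the next at 479 CPM. Without the ADCY1 replicate concerned, its E2 call in sorted cells was kept, and the highest adjusted p with any 1 replicate left out was 0.0016.

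The E2 effect on RAPGEF1 was larger in sorted than in unsorted cells by 0.46 on the log2 scale, by a test of the difference itself (adjusted p = 0.043, edgeR). The call was lost without replicate 1, 3, 4, 5 or 6 (adjusted p up to 0.25), without the block (1) and with no filter on low counts (0.078).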

How the results depend on the processing

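The E2 counts depend on the replicate block, while directions did not: no called member changed sign under any alternative run. With no replicate block, and so without the pairing, 0 members and 196 genes (10 and 1896 with it) passed for E2 in sorted cells, 1 and 37 (5 and 790) in unsorted cells, and 0 and 4 (1 and 70) for the difference of the effects. Between sorted and unsorted cells the counts without the block were 18 members and 7533 genes with E2 and 22 and 7267 with vehicle, within 1.5 times those with it. In the fit over all 24 libraries, 6 members and 892 genes passed for E2 in sorted and 3 and 345 in unsorted cells. In replicates 1 to 3 alone, the shallower libraries, 2 members and 563 genes passed in sorted cells, 0 and 67 in unsorted cells and 0 and 2 for the difference. For the difference, 0 members passed with no filter, and DESeq2 called 123 genes.

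With 1 replicate number left out, 7 to 11 members and 1361 to 1893 genes passed for E2 in sorted cells, 4 to 6 and 451 to 822 in unsorted cells, and 0 to 1 and 22 to 58 for the difference. Between sorted and unsorted cells the ranges were 19 to 22 members and 8018 to 9833 genes with E2 and 22 to 27 and 7578 to 9246 with vehicle. Of the 10 members called for E2 in sorted cells, RLE size factors, the 1 CPM filter, no filter and the non-robust fit each kept 10 and DESeq2 kept 8. Of the 5 in unsorted cells each of these kept 5. Genes under 1 CPM are limited by depth, most of all in replicates 1 to 3.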

Other observations

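Whether fold changes differed between replicates 4 to 6 and 1 to 3 was tested for every gene. For the E2 effect 0 of 38 members passed in sorted cells (edgeR, 4 at unadjusted p) and 0 of 40 in unsorted cells (3 at unadjusted p), beside 0.00698% and 0% of all genes. For the difference between sorted and unsorted cells 2 of 38 members passed under each treatment, PDE12 and PRKACA, beside 7.61% of all genes with E2 and 10.3% with vehicle. The set difference of PDE12 was 0.46 ± 0.11 with E2 and 0.60 ± 0.14 with vehicle, and that of PRKACA 0.43 ± 0.10 with E2 and 0.37 ± 0.11 with vehicle.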
